A study of Homo sapiens with 24 samples.

Results

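The genes described here build the centromere and the kinetochore or serve the spindle assembly checkpoint, in PPC1, a prostate cancer cell line, and in the polyploid giant cancer cells (PGCC) that radiation induced in it. They were chosen by name: 49 protein-coding genes were listed, and 48 of them have a row under that name among the 48162 genes of the deposited count table. The exception is CENPC, which the table lists under its older symbol CENPC1 and which is therefore given apart. All 48 genes passed the filter on low counts in every comparison.

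The libraries fall into 4 conditions of 6. Parental cells (UT) received no treatment and were harvested on day 5. Parental cells with LCL521 (UT_LCL) were exposed to 5 µM of this inhibitor of acid ceramidase for 5 hours before the same harvest. PGCC had received 8 Gy of radiation on day 2 and were the cells that a 20 micron filter held back on day 5, and PGCC with LCL521 (PGCC_LCL) had the same irradiation, filtration and drug exposure. Since parental cells were neither irradiated nor filtered, an effect of radiation, selection by size and the giant state cannot be told apart in these libraries. The experiment was done 6 separate times with all 4 harvests in parallel, and the replicate numbers 1 to 6 mark those times. All libraries come from 1 cell line.

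The total count lay between 14835246 and 19906601 reads per library. Levels are given as CPM, the usual depth-scaled counts, with library sizes scaled by the TMM method of edgeR, and levels of different genes are compared only as RPKM, which also divides by gene length. A level of 3 counts corresponded to between 0.151 and 0.202 CPM per library, for counting error only. CPM is a share of a library: it gives no amount per cell, and in these bulk samples fewer cells of a kind and less RNA per cell cannot be told apart. Of the defining markers, the epithelial keratins KRT8 and KRT18 were present (70.2 ± 12.8 and 233 ± 35.1 CPM in parental cells, SD, n = 6), as was the prostate homeobox gene HOXB13 (745 ± 112 CPM, SD, n = 6), whereas the prostate markers KLK3, KLK2 and FOLH1 were at 0 counts in all libraries. In a principal component analysis 55.9% of the variance lay on the first component and 16.5% on the second, which set replicates 4 and 5 apart from the others in all 4 conditions. Results are therefore also given within replicates 1, 2, 3 and 6 and within replicates 4 and 5.

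The centromere is the stretch of a chromosome where nucleosomes carry the histone H3 variant CENPA. On this chromatin stands the constitutive centromere-associated network (CCAN), which in mitosis receives the outer kinetochore, the KNL1-MIS12-NDC80 network that grips microtubules. The spindle assembly checkpoint holds back anaphase while any kinetochore lacks microtubules, and the chromosomal passenger complex releases faulty attachments. Many of these genes are known to be transcribed mainly in G2 and M phase of dividing cells.

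The first comparison asks how PGCC differ from the parental cells they came from. Of the 48 genes, 41 were higher and 2 were lower in PGCC than in parental cells, and 5 did not pass the threshold, an adjusted p-value of 0.05 (quasi-likelihood test of edgeR, Benjamini-Hochberg adjustment over 13812 genes). Among all genes tested, 47.4% were called, 23.1% as higher and 24.3% as lower. The median log2 fold change of the 48 genes was 1.79, against -0.03 for all genes tested. A rise of over 2-fold was measured in 38 of the 48 genes and in 11.3% of all genes tested, and a rise of over 4-fold in 18 of the 48 and in 3.7% of all. Together the 48 genes took between 0.121% and 0.145% of the counts of a parental library (median 0.132%) and between 0.276% and 0.322% of a PGCC library (median 0.291%).

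In 39 of the 48 genes all 6 PGCC libraries lay above all 6 parental libraries, which held for 13.9% of all genes tested, and in 2 genes all lay below (12.9% of all). With the replicate block, which pairs the libraries of each experiment, 41 genes were higher and 4 lower, where 56.2% of all genes tested were called and 28.3% were lower. The 41 higher genes were higher in PGCC in all 6 same-numbered pairs, which the lack of overlap already implies for 39 of them. The share over all genes was not counted. CENPT and CENPF were called higher although the libraries of the 2 conditions overlapped.

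**Figure D1:**
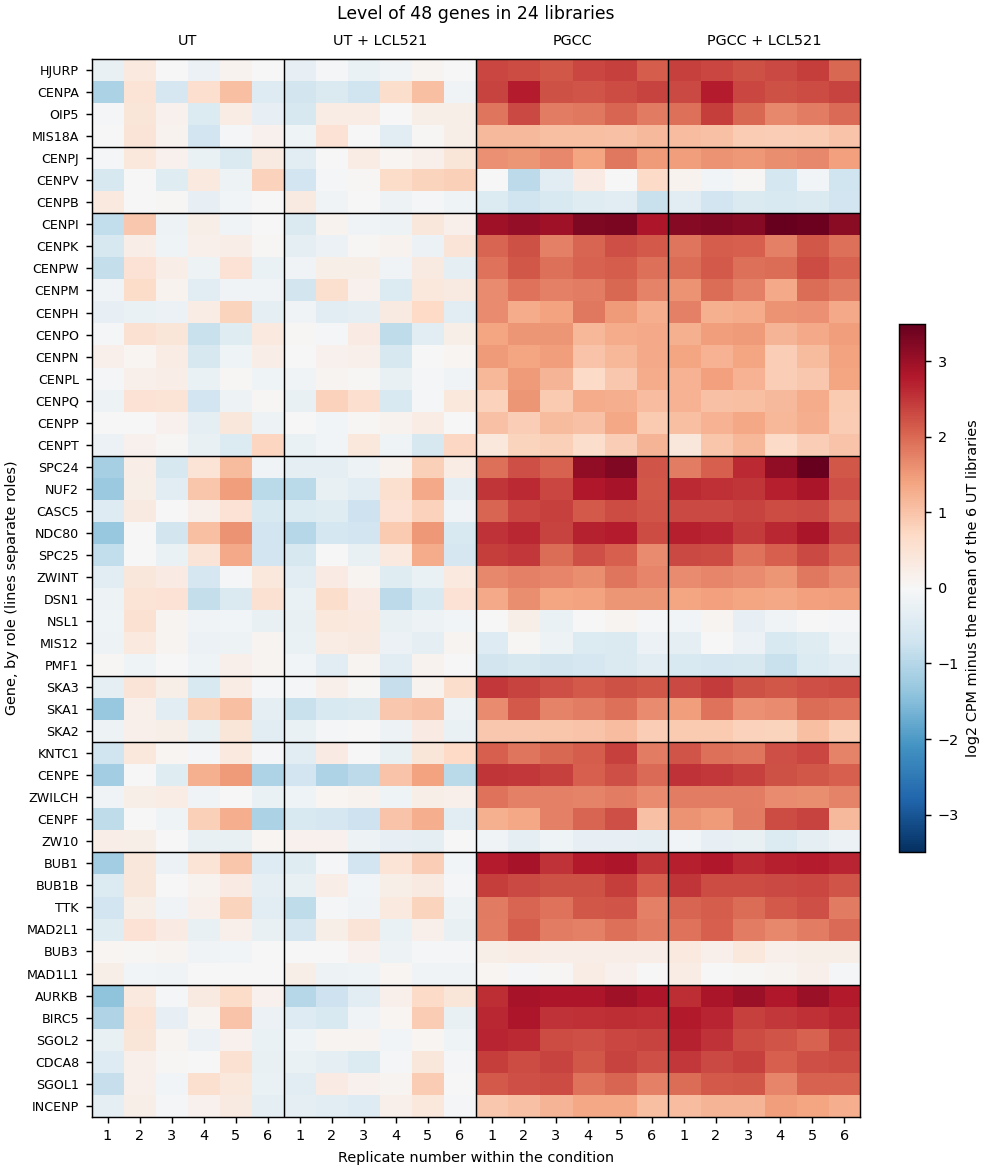
Heat map of the 48 genes (vertical axis, grouped by role) in the 24 libraries (horizontal axis, replicates 1 to 6 of each condition), in log2 CPM minus the mean of the 6 parental libraries of that gene. The PGCC libraries are red for the 41 genes called higher, though BUB3 is nearly white. CENPB and PMF1 are pale blue there, and MIS12 and ZW10, which did not pass, are mostly a fainter blue. Among the parental libraries NDC80, NUF2, CENPE and CENPF are red in replicates 4 and 5.

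Genes that serve mitosis are known to share promoter elements, among them the cell cycle homology element (CHR), the CCAAT box and E2F sites. RefSeq promoter windows (GRCh38.p14, 250 bases before to 50 bases after a start) were matched by symbol for 38 of the 48 genes, 44 windows in all. No window was matched for BIRC5, BUB3, CASC5, CENPH, CENPJ, CENPL, CENPM, KNTC1, MIS18A and TTK. The windows were searched on both strands for exact matches to TTTGAA and its variant TTTAAA (CHR), to the letters CCAAT, and for E2F to TTCCCGC and its variants TTGGCGC, then TTCGCGC and also TTGCCGC. On the other strand CCAAT reads ATTGG and can overlap the first of these variants. CHR letters were found in 45.5% of the 44 windows, in 24.0% of all 35116 windows of the table and in 17.3% of the 14976 windows of genes that were tested. CCAAT letters were found in 63.6% of the members' windows, against 34.6% of all windows and 34.8% of the windows of tested genes. E2F letters were found in 36.4%, against 13.0% and 18.9%. Of the 36 windows of genes higher in PGCC, which belong to 31 genes, 19 (52.8%) held CHR letters. Neither of the 2 windows of the lower genes did, but 2 windows are too few for a comparison in any of these letters. E2F letters were found in 11 (30.6%) of the 36, in both windows of the lower genes and in 3 of the 6 windows of genes that did not pass. A match of letters is a description and not a binding site.

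Among genes higher in PGCC, the windows of CENPI, which had the largest rise of the 48 genes, DSN1 and CENPT held no match. These windows are not shown, nor is that of NUF2, where the matches lie after the start. The 8 sequences below all hold a match and thus do not stand for all genes that rose. They belong to CENPA, NDC80, SPC24, SPC25, AURKB, CENPE and BUB1, which were higher in PGCC, and CENPB, which was lower. Each runs 5′ to 3′ along the gene from 150 bases before the start through the first 3 bases of the transcript, and capitals mark letters that match CHR, CCAAT or E2F.
CENPA (chr2:26785906-26786058, plus strand): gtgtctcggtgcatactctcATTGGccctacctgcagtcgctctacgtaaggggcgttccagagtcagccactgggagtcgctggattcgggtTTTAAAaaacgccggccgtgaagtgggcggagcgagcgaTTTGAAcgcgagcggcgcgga
NDC80 (chr18:2571407-2571559, plus strand): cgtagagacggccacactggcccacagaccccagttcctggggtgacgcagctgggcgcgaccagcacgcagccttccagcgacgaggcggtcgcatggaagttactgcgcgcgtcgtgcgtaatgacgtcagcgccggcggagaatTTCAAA
SPC24 (chr19:11155780-11155932, minus strand): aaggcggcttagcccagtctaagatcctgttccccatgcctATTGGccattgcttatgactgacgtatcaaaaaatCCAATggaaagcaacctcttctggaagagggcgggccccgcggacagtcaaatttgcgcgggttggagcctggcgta
SPC25 (chr2:168890428-168890580, minus strand): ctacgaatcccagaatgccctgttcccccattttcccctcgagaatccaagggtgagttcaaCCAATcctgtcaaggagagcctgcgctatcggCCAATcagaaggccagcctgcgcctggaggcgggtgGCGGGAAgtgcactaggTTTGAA
AURKB (chr17:8210247-8210399, minus strand): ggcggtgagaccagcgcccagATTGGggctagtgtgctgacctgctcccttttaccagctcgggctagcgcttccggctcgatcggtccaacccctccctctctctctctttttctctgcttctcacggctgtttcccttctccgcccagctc
CENPE (chr4:103198341-103198493, minus strand): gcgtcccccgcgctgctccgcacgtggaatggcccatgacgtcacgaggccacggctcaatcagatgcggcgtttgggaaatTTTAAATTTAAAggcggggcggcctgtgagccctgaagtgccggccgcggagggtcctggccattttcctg
BUB1 (chr2:110678061-110678213, minus strand): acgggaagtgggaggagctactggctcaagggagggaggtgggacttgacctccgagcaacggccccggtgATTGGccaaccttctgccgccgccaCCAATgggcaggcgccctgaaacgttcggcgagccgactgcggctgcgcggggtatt
CENPB (chr20:3786738-3786890, minus strand): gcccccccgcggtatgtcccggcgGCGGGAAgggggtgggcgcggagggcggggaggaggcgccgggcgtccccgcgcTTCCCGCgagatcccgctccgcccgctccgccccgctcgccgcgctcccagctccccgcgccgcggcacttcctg

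CHR letters are thus seen close to the start in CENPA, NDC80 and SPC25, and 2 times in a row in CENPE. CCAAT letters alone are seen in SPC24, AURKB and BUB1. CENPB shows E2F letters alone.

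The 4 genes of centromeric chromatin and its loading were all higher in PGCC, with a median log2 fold change of 2.09. CENPA (hg19 chr2:26987157-27023935) had 4.08 CPM in the lowest, 9.58 at the median and 18.9 in the highest parental library, and 41.6, 45.3 and 60.7 CPM in PGCC. The lowest PGCC library thus stood above 2 times the highest parental one. Its log2 fold change was 2.20 (SE 0.31, adjusted p = 5.21e-05, edgeR with Benjamini-Hochberg adjustment). HJURP, the chaperone that places CENPA, ranged from 27.2 to 41.2 CPM (median 32.7) in parental cells and from 141 to 171 CPM (median 162) in PGCC. The gap between the groups was wide against the spread within them, and the log2 fold change was 2.27 (SE 0.10, adjusted p = 6.4e-09, edgeR with Benjamini-Hochberg adjustment), the smallest adjusted p among the 48 genes. OIP5 and MIS18A, 2 subunits of the complex that licenses centromeres for new CENPA, differed in the size of their rise. OIP5 went from a median of 2.61 CPM (1.80 to 3.42) to 9.51 CPM (9.02 to 13.1), a log2 fold change of 1.97 (SE 0.17). MIS18A went from 17.3 CPM (10.4 to 23) to 35.7 CPM (34.0 to 36.6), a log2 fold change of 1.06 (SE 0.14). In both genes the groups did not overlap. Without strand in the counting, which is not stated in the sources used here, reads of OIP5 cannot be told from those of its antisense gene OIP5-AS1.

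The other proteins that bear the name CENP did not move together. CENPB, which binds a motif in alpha satellite DNA, fell (hg19 chr20:3764498-3767337). Its CPM ranged from 311 to 476 (median 379) in parental cells and from 219 to 289 (median 265) in PGCC, with no overlap between the conditions. The log2 fold change was -0.55 (SE 0.10, adjusted p = 0.000397, edgeR with Benjamini-Hochberg adjustment). CENPB had the highest RPKM of the 48 genes in parental cells, 134 ± 19.2, and in PGCC its RPKM of 91.3 ± 9.70 differed from the 90.5 ± 1.06 of BUB3 by less than the spread (SD, n = 6). With LCL521 in PGCC, BUB3 was at 91.4 ± 5.61 RPKM and CENPB at 91.0 ± 6.41 RPKM (SD, n = 6). CENPJ, a centriole protein, rose by 1.59 (SE 0.15) on the log2 scale. CENPV, near 2 CPM in both populations, had a log2 fold change of -0.03 with a 95% interval from -0.68 to 0.61.

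All 11 CCAN genes among the 48 were higher in PGCC, with a median log2 fold change of 1.33 and a range from 0.75 to 3.04. CENPC1, also of this network but outside the 48, was not. CENPI (hg19 chrX:100353178-100418670), a subunit of the CENPH-CENPI-CENPK-CENPM group, had the largest log2 fold change of the 48 genes. It lay between 1.14 and 4.35 CPM (median 2.10) in parental cells and between 16.1 and 22.7 CPM (median 18.6) in PGCC, so that the groups were far apart. Its log2 fold change was 3.04 (SE 0.24, adjusted p = 3.98e-07, edgeR with Benjamini-Hochberg adjustment), a ratio of 8.23. Its partners rose less: the log2 fold change was 2.11 in CENPK, 1.81 in CENPM and 1.46 in CENPH. CENPW, which pairs with CENPT through its histone fold, rose by 1.98 (SE 0.20) on the log2 scale, while CENPT rose by 0.75 (SE 0.19, adjusted p = 0.00532, edgeR with Benjamini-Hochberg adjustment). The CENPT libraries overlapped, at 19.9 to 46.5 CPM in parental cells and 36.3 to 63.2 CPM in PGCC. CENPN, which recognises the CENPA nucleosome, and its partner CENPL rose by 1.30 and 1.15 on the log2 scale. CENPO, CENPQ and CENPP, of a further CCAN group, rose by 1.33, 1.14 and 1.07. By contrast, CENPC1, the gene of the scaffold protein CENPC, had 16.2 ± 3.22 CPM in parental cells and 16.3 ± 1.77 CPM in PGCC (SD, n = 6), and its log2 fold change was 0.02 with a 95% interval from -0.28 to 0.31. CENPT, CENPN, CENPL, CENPO and CENPP overlap other genes in the annotation, so that their counts are uncertain.

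In the outer kinetochore, 7 of 10 genes of the KNL1-MIS12-NDC80 network were higher, 1 was lower and 2 did not pass, with a median log2 fold change of 1.85. The 4 subunits of the NDC80 complex, the rod that holds the microtubule, all rose. NDC80 itself (hg19 chr18:2571510-2616634) had 5.12, 10.7 and 39.4 CPM in the lowest, median and highest parental library and 64.6, 78.9 and 88.8 CPM in PGCC. NUF2, its partner at the microtubule end, had 4.95, 11.7 and 33.7 CPM against 55.4, 72.7 and 91.5 CPM. SPC24, at the other end of the rod, had 1.42, 3.46 and 7.28 CPM against 12.9, 15.9 and 32.5 CPM, and SPC25 had 1.36, 2.39 and 6.58 CPM against 8.29, 12.1 and 14.9 CPM. None of the 4 genes had overlapping libraries, and in each the highest parental values were those of replicates 4 and 5. The log2 fold changes were 2.19 (SE 0.41), 2.25 (SE 0.39), 2.42 (SE 0.36) and 2.01 (SE 0.33) in this order, and their adjusted p-values lay between 8.9e-05 and 0.000567 by edgeR with Benjamini-Hochberg adjustment. On the RPKM scale NDC80 and NUF2 stood at 7.79 ± 6.24 and 7.85 ± 5.78 in parental cells, against 1.62 ± 0.899 for SPC24 and 2.20 ± 1.43 for SPC25 (SD, n = 6). In PGCC the 4 RPKM values were 35.7 ± 4.53, 37.3 ± 6.90, 8.70 ± 3.67 and 8.88 ± 1.84, so that the order of the pairs was kept. The count of SPC24 is uncertain, since the strand setting of the counting is not stated.

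The MIS12 complex, which ties the NDC80 complex to the CCAN, was split. DSN1 rose by 1.39 on the log2 scale (SE 0.21, adjusted p = 0.000123, edgeR with Benjamini-Hochberg adjustment), from a median of 18.6 CPM (9.11 to 23.8) to 45.7 CPM (41.1 to 50.4). PMF1 fell by 0.55 (SE 0.10, adjusted p = 0.000362, edgeR with Benjamini-Hochberg adjustment), from 24.7 CPM (22 to 27.6) to 16.4 CPM (15.7 to 19.0). These 2 subunits went opposite ways with no overlap between the libraries of the conditions. MIS12 had a median of 29.8 CPM (26.6 to 38.9) in parental cells and 24.2 CPM (21.3 to 31.5) in PGCC, and its log2 fold change of -0.29 did not pass (adjusted p = 0.0786, edgeR with Benjamini-Hochberg adjustment). It was lower in PGCC in all 6 pairs, and a fit with replicates as a block gave an adjusted p of 0.00494 by the same test. NSL1 had a log2 fold change of -0.01 with an interval from -0.29 to 0.27. On the RPKM scale, PMF1 was the highest of the 4 in parental cells at 22.9 ± 2.06 and DSN1 the lowest at 7.16 ± 2.71, whereas in PGCC DSN1 was the highest at 18.6 ± 1.53 and PMF1 had 15.6 ± 1.17 (SD, n = 6). CASC5, also called KNL1, which recruits the checkpoint proteins, and its partner ZWINT rose by 2.21 (SE 0.17) and 1.70 (SE 0.16) on the log2 scale. The SKA complex, which helps kinetochores follow shrinking microtubules, rose in all 3 subunits, SKA3 by 2.26, SKA1 by 1.66 and SKA2 by 0.95.

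Of the 5 genes of the corona and of the RZZ complex, which coats kinetochores without microtubules, 4 rose. CENPE, a kinesin that carries chromosomes to the spindle equator, had 4.84, 9.92 and 32.1 CPM in the lowest, median and highest parental library and 45.4, 57.8 and 64.7 CPM in PGCC. The groups did not overlap, but the parental libraries spread widely, and the log2 fold change of 1.92 had an SE of 0.41 (adjusted p = 0.00159, edgeR with Benjamini-Hochberg adjustment). CENPF, a large corona protein, had 19.9, 41.0 and 104 CPM against 87.0, 128 and 206 CPM, and overlapped between the groups. Its log2 fold change was 1.44 (SE 0.37, adjusted p = 0.00553, edgeR with Benjamini-Hochberg adjustment). Within the RZZ complex KNTC1 (ROD) rose by 2.04 (SE 0.17) and ZWILCH by 1.78 (SE 0.10), while the third subunit ZW10 had a log2 fold change of -0.25. ZW10 ranged from 31.9 to 44.8 CPM in parental cells and from 30.5 to 35.0 CPM in PGCC, with overlap, at an adjusted p of 0.0519 by edgeR with Benjamini-Hochberg adjustment. With the replicate block its adjusted p was 0.0349 by the same test, and it was lower in PGCC in 6 of 6 pairs. ZW10 is also known for work in membrane traffic outside mitosis.

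**Figure D2:**
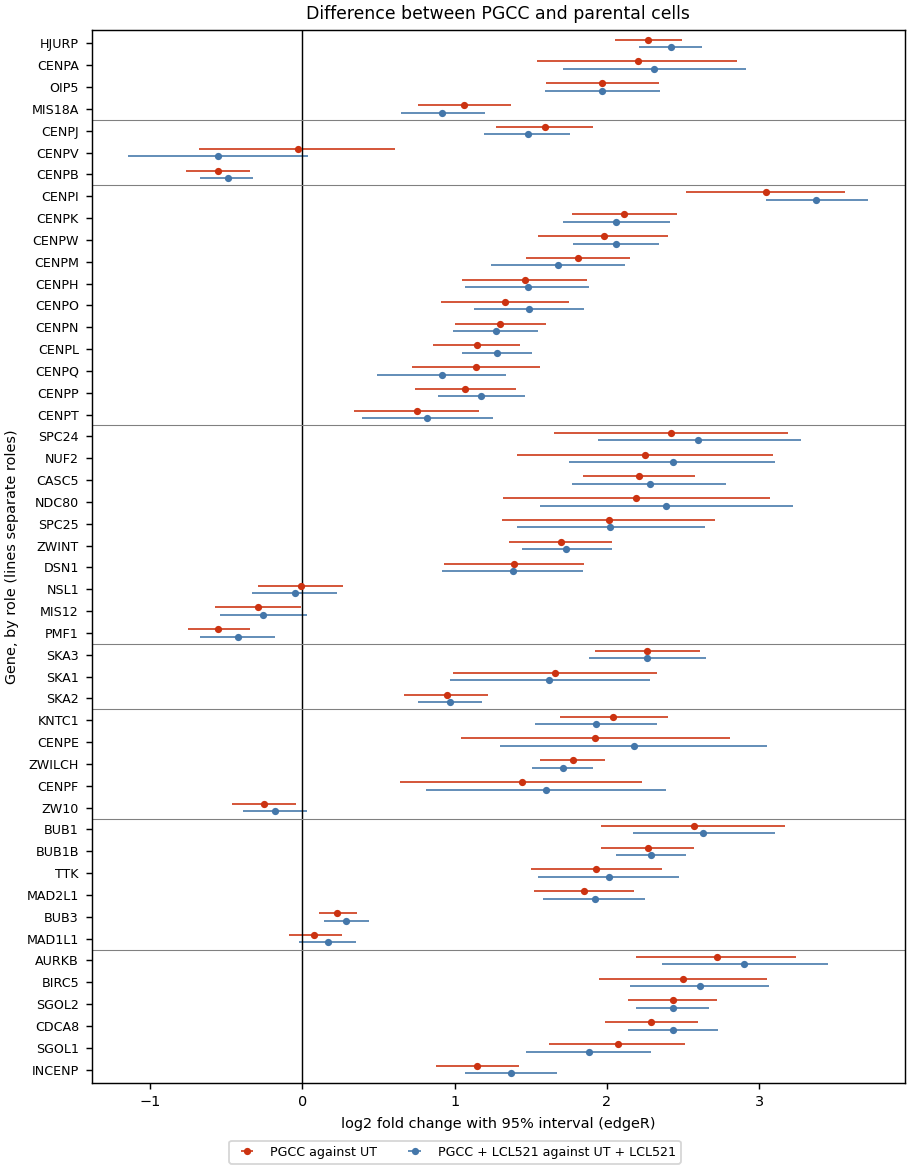
Log2 fold changes (horizontal axis, points) with 95% intervals from edgeR for the 48 genes (vertical axis, grouped by role), PGCC against parental cells in red and the same comparison with LCL521 in both populations in blue. DSN1 lies above 1 while PMF1 lies below 0, KNTC1 and ZWILCH lie above 1.5 while ZW10 lies near 0, and BUB1 and BUB1B lie above 2 while BUB3 and MAD1L1 lie under 0.5.

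Of the 6 checkpoint genes, 5 were higher in PGCC and MAD1L1 did not pass. BUB1 (hg19 chr2:111395275-111435691), a kinase that also marks the inner centromere for shugoshin, had 6.91, 17.6 and 31.8 CPM in the lowest, median and highest parental library and 92.5, 110 and 120 CPM in PGCC. With a log2 fold change of 2.57 (SE 0.28, adjusted p = 6.19e-06, edgeR with Benjamini-Hochberg adjustment) it rose most of the 6. BUB1B, the gene of BUBR1 in the mitotic checkpoint complex, had 13.6, 19.6 and 25 CPM against 80.2, 91.5 and 102 CPM. MAD2L1, the gene of MAD2, had 18.5, 24.5 and 35.4 CPM against 85.4, 87.0 and 109 CPM, and TTK, the kinase MPS1 that starts the signal, had 9.52, 15.5 and 26.0 CPM against 51.8, 60.0 and 70.4 CPM. In these 3 genes the groups were far apart, and the log2 fold changes were 2.27 (SE 0.14), 1.85 (SE 0.15) and 1.93 (SE 0.20). BUB3, the partner of both BUB proteins, had 193, 214 and 226 CPM against 242, 247 and 251 CPM. Its groups did not overlap either, but its log2 fold change was only 0.23 (SE 0.06, adjusted p = 0.00511, edgeR with Benjamini-Hochberg adjustment). MAD1L1, the gene of MAD1 that holds MAD2 at the kinetochore, had 31.5, 34.6 and 39.9 CPM against 33.5, 35.7 and 41.0 CPM, and the groups overlapped almost fully. The interval of its log2 fold change ran from -0.09 to 0.26, below the interval of its partner MAD2L1, from 1.52 to 2.18. On the RPKM scale BUB3 stood at 77.4 ± 4.87 in parental cells, against 5.11 ± 2.53 for BUB1 and 5.18 ± 1.19 for BUB1B, and in PGCC at 90.5 ± 1.06 against 30.3 ± 3.33 and 24.8 ± 2.18 (SD, n = 6).

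The chromosomal passenger complex and the shugoshins were higher in PGCC in 6 of 6 genes, with a median log2 fold change of 2.36, the highest median of any role. AURKB (hg19 chr17:8108056-8113918), the kinase of the complex, had 4.90, 15.5 and 20.6 CPM in the lowest, median and highest parental library and 79.7, 94.5 and 103 CPM in PGCC. The log2 fold change was 2.72 (SE 0.25, adjusted p = 1.14e-06, edgeR with Benjamini-Hochberg adjustment). BIRC5 (survivin) had 3.97, 8.06 and 16.7 CPM against 48.4, 50.4 and 60.3 CPM, and CDCA8 (borealin) had 12.4, 17.1 and 24.5 CPM against 76.9, 85.5 and 91.9 CPM. Their log2 fold changes were 2.5 (SE 0.26) and 2.29 (SE 0.14). INCENP, the scaffold of the complex, had 30.3, 39.9 and 47.1 CPM against 73.9, 83.4 and 97.6 CPM and rose less, by 1.15 (SE 0.13). None of the 4 genes had overlapping libraries, and the 95% interval of INCENP, from 0.88 to 1.42, lay below those of the other 3, of which the lowest bound was 1.95. Per gene length, AURKB and INCENP stood close together in parental cells, at 11.4 ± 4.27 and 9.76 ± 1.78 RPKM, and apart in PGCC, at 75.0 ± 6.07 and 21.6 ± 2.57 RPKM (SD, n = 6). SGOL2, a shugoshin that shields centromeric cohesin, had 14.0, 16.3 and 22.7 CPM against 81.1, 86.9 and 108 CPM, with a log2 fold change of 2.43 (SE 0.13). SGOL1, its paralog, rose by 2.07 (SE 0.21).

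The same contrast was made between libraries that all had LCL521, and shares no library with the first. The libraries come from the same 6 experiments, however. Between same-numbered libraries without and with the drug, deviations from the condition mean correlated at a median of 0.652 (parental cells) and 0.532 (PGCC). This second contrast is therefore not an independent repeat. It gave the same 41 higher and 2 lower genes, with the same 5 not passing, where 48.9% of the 13818 genes tested were called, 25% as higher and 23.9% as lower. With the block 41 were higher and 3 lower, where 56.3% of all genes tested were called and 26.8% were lower. Over the table, 42.9% of the 13636 genes tested in both comparisons were called in the same direction in both. The median log2 fold change of the 48 genes was 1.72, against -0.01 for all genes. The groups did not overlap in 39 higher genes (14.4% of all genes tested) and in 1 lower gene (13.7% of all), CENPB. For the 43 called genes the log2 fold change without and with LCL521 differed by 0.10 at the median and by at most 0.33. That largest gap was in CENPI, which ranged from 1.51 to 2.94 CPM (median 2.21) in parental cells with LCL521 and from 20.3 to 26.7 CPM (median 21.4) in PGCC with LCL521. These groups too were far apart, with a log2 fold change of 3.37 (SE 0.16, adjusted p = 1.66e-09, edgeR with Benjamini-Hochberg adjustment). AURKB had a log2 fold change of 2.90, BUB1 of 2.63, BIRC5 of 2.61 and SGOL2 of 2.43 in this comparison, while PMF1 stood at -0.42, CENPB at -0.49, ZW10 at -0.18 and MAD1L1 at 0.17. BUB3 was higher, as its partners were, but by only 0.29. CENPC1 had a log2 fold change of 0.24 that did not pass here (adjusted p = 0.095) and was called with the block, at 0.23 and higher in 6 of 6 pairs (adjusted p = 0.0335, both by edgeR with Benjamini-Hochberg adjustment).

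Replicates 4 and 5 changed the size of many of these differences but the sign of none of the 43 calls, with or without LCL521. Without these 2 replicates and without LCL521, 41 genes were again called higher and 3 lower, with ZW10 added, where 54.6% of all genes tested were called. With LCL521 the counts stayed at 41 and 2, where 52.5% were called. The paired difference between PGCC and parental cells was larger by over 0.5 on the log2 scale in replicates 1, 2, 3 and 6 for 13 genes, and in replicates 4 and 5 for 8 genes. The first set held NDC80, NUF2 and SPC25 of the NDC80 complex but not SPC24 (2.51 and 2.38). In the second set CENPB fell less in replicates 4 and 5. In NDC80 the pairs differed on average by 3.11 in the former replicates and by 1.41 in the latter, in NUF2 by 3.01 and 1.63, in CENPE by 3.01 and 0.82, and in CENPA by 2.84 and 1.42. In the second set DSN1 had 1.13 and 2.14, CENPQ 0.87 and 1.71, and CENPO 1.15 and 1.83.

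In NDC80 and DSN1 the parental libraries varied more than those of PGCC. NDC80 stood at 5.12 to 13.0 CPM in parental replicates 1, 2, 3 and 6 and at 27.4 to 39.4 CPM in replicates 4 and 5, but at 64.6 to 81.8 and 85.9 to 88.8 CPM in the PGCC libraries. DSN1 stood at 14.4 to 23.8 CPM and at 9.11 to 11.5 CPM in the same parental libraries, and at 41.1 to 50.4 and 43.4 to 48 CPM in PGCC. Replicates 4 and 5 thus lay above the other parental libraries in NDC80 and below them in DSN1. Of the 48 genes, 11 had both replicates above all 4 other parental libraries and 12 had both below. The shares of all genes tested were 25.7% and 26.4%, near those of the 48 genes. In parental cells with LCL521 the counts were 15 above and 3 below, where the shares of all genes were 24.1% and 23.7%. In PGCC they were 12 and 5, where the shares were 22.2% and 18.9%, and in PGCC with LCL521 8 and 10, where they were 19.8% and 21%. In parental cells without the drug the 11 were CENPA, CENPH, NDC80, NUF2, SPC24, SPC25, SKA1, CENPE, CENPF, BUB1 and SGOL1, and the 12 were MIS18A, CENPB, CENPJ, CENPM, CENPN, CENPO, CENPQ, CENPT, MIS12, DSN1, ZW10 and BUB3. In parental cells with LCL521 all of the 11 but SPC24 and SGOL1 were above again. Of the 12 only CENPO, DSN1 and ZW10 were below again.

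**Figure D3:**
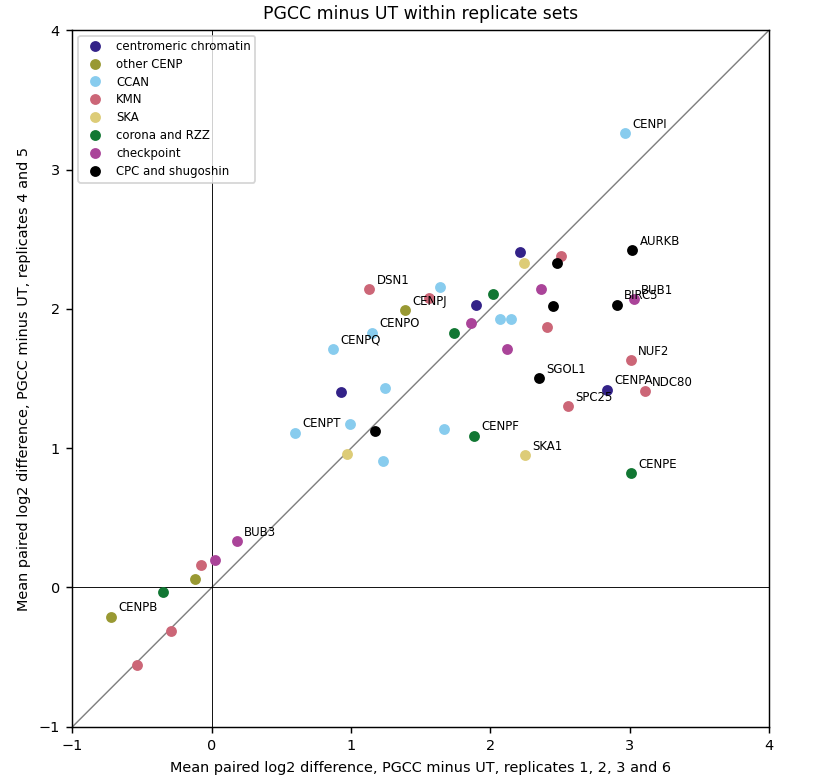
Mean paired log2 difference between PGCC and parental cells in replicates 1, 2, 3 and 6 (horizontal axis) and in replicates 4 and 5 (vertical axis), 1 point per gene, coloured by role, with the line of equality. NDC80, CENPE, CENPA and SKA1 lie below the line and DSN1, CENPO and CENPQ above it, and all 41 called rises lie above 0 on both axes.

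The spread within a condition differed between the populations. The coefficient of variation of CPM over 6 libraries had a median of 26.6% over the 48 genes in parental cells and of 11.5% in PGCC, against 20.3% and 14.3% over all genes tested. It was lower in PGCC in 46 of the 48 genes, in 72.7% of all genes tested and in 86.6% of the 1555 genes that rose over 2-fold. With LCL521 it was lower in PGCC in 44 of the 48 genes, against 75.4% of all genes tested and 85.5% of the same 1555 genes. The most even gene was BUB3 in PGCC, at 247 ± 2.89 CPM (SD, n = 6), a coefficient of 1.17%.

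**Figure D4:**
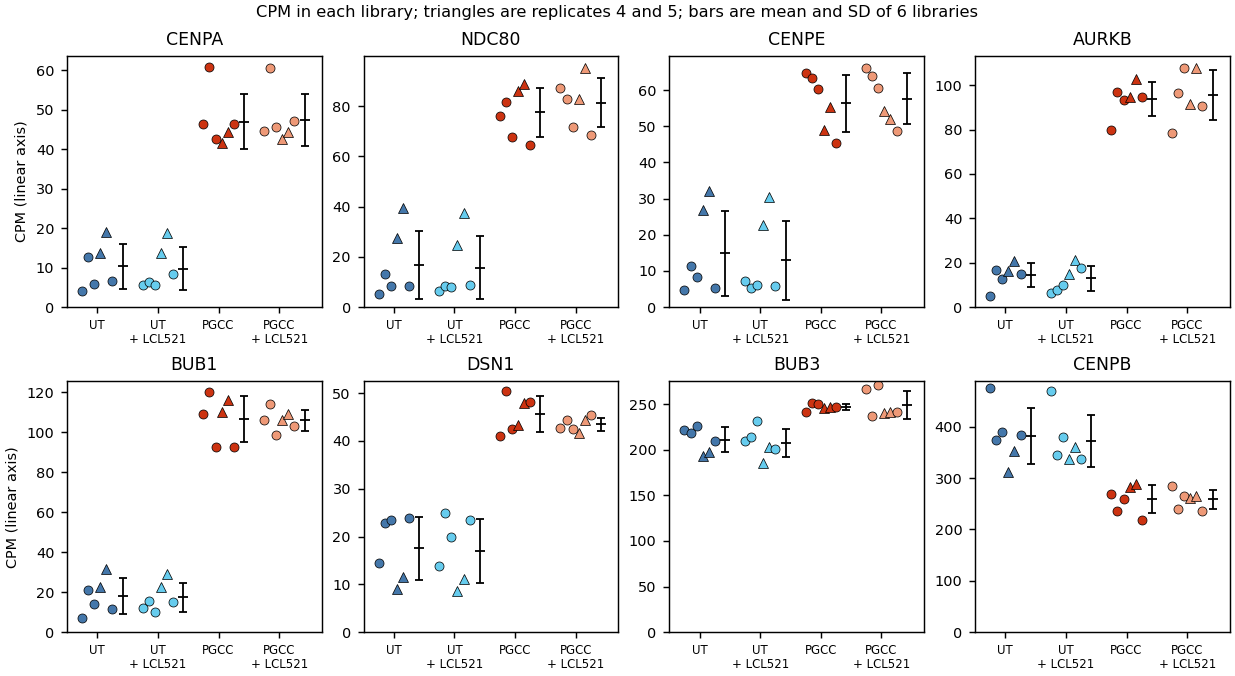
CPM (vertical axes, linear, from 0) of 8 genes in each of the 24 libraries (points, replicates 4 and 5 as triangles), with the mean and SD of the 6 libraries of each condition as bars. In NDC80 and CENPE the triangles lie above the circles of the parental cells, in DSN1 below them, and in AURKB and BUB1 all PGCC libraries lie above 75 CPM and all parental ones below 35 CPM.

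Other genes of the pathway were counted from lists. Of 12 further centromere and kinetochore genes, 8 were higher, 1 was lower and 3 did not pass, with a median log2 fold change of 0.79; the largest rises were in SPAG5 (2.66), a kinetochore and spindle protein, and MLF1IP (1.69), the CCAN subunit CENPU, and BOD1 fell by 0.24. All 18 G2 and M phase markers outside the members were higher, with a median of 2.13, led by ANLN (3.07) and DLGAP5 (2.41). Of 23 genes of the anaphase-promoting complex, its activators, inhibitors and targets, which the checkpoint restrains, 10 were higher, 6 lower and 7 did not pass, with a median of 0.12. The separase gene ESPL1 (2.31) and the securin gene PTTG1 (2.21) rose most there, and the core subunit genes ANAPC16 (-0.79) and ANAPC4 (-0.40) fell most. Of 14 genes of cohesin and its regulators 3 were higher, 4 lower and 7 did not pass, with a median of -0.08. The rises were led by ESCO2 (3.00) and CDCA5 (2.46), which act on cohesin in S phase, and the loader NIPBL fell by 0.43. Calls in these lists are to be read against the 47.4% of all genes that were called.

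The share of cells in each phase was not measured, but lists of phase markers moved with the replicates. Of 17 G1/S markers 9 were higher, 2 lower and 6 did not pass, with a median of 0.78. The median paired difference of these markers lay between 0.22 and 0.80 in replicates 1, 2, 3 and 6 and was 1.97 and 1.89 in replicates 4 and 5. That of the G2 and M phase markers lay between 2.06 and 3.09 in the former and was 1.88 and 1.61 in the latter. The summed level of the G1/S markers was 1390 to 1660 CPM in parental replicates 1, 2, 3 and 6, 766 to 879 CPM in parental replicates 4 and 5 and 2170 to 2500 CPM in all PGCC libraries. The summed level of the G2 and M phase markers was 292 to 594 CPM, 618 to 827 CPM and 2060 to 2420 CPM in the same libraries. Parental replicates 4 and 5 were thus the lowest in the former list and the highest parental libraries in the latter. For the 48 genes the median paired difference was 2.10, 1.54, 1.64, 1.82, 1.44 and 1.93 in replicates 1 to 6. The part of cell cycle phase in the differences between PGCC and parental cells was not tested. PTPRC, a blood cell marker, was at 1.17 ± 1.03 CPM in parental cells and 3.09 ± 0.606 CPM in PGCC (SD, n = 6), and the 3 stromal markers summed to 6.23 to 14.5 CPM and 9.37 to 12.6 CPM, with DCN near 0. All libraries are cultures of the PPC1 line, and the source of these marker counts was not tested.

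LCL521 was compared with no drug within each population. In parental cells none of the 48 genes passed, where 0 of 13277 genes did (0% of all), and none had an unadjusted p under 0.05, against 0.535% of all genes tested, by edgeR. With the replicate block 0.866% of all genes passed and again none of the 48, and DESeq2 called none of the 48 either. The log2 fold changes with the block had a median of -0.02 and ran from -0.21 in CENPE to 0.30 in CENPV. In 46 of the 48 genes the 95% interval lay within 0.5 on either side of 0. CENPE had a 95% interval from -0.50 to 0.09, and CENPV, at few counts, from -0.05 to 0.65.

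In PGCC, LCL521 gave no call among the 48 genes without the block, where 0.00707% of 14151 genes passed, and by edgeR 2 of the 48, CENPI and MIS18A, had an unadjusted p under 0.05, against 1.54% of all genes tested. DESeq2 called none of the 48. With the block 1.65% of all genes passed, and CENPI and CENPF were among them. CENPI was at 17.8, 19.4, 17.9, 22.3, 22.7 and 16.1 CPM in PGCC replicates 1 to 6 and at 21.0, 21.8, 20.9, 26.7, 24.9 and 20.3 CPM with LCL521. The drug libraries were higher in every pair, although the 2 conditions overlapped. The log2 fold change with the block was 0.23, with a 95% interval from 0.11 to 0.35 (adjusted p = 0.0364, edgeR with Benjamini-Hochberg adjustment). CENPF was at 102, 110, 146, 177, 206 and 87.0 CPM in replicates 1 to 6 and at 128, 120, 151, 208, 220 and 94.2 CPM with LCL521. It too was higher in every pair and overlapped, with a log2 fold change of 0.16 and an interval from 0.08 to 0.24 (adjusted p = 0.0266, edgeR with Benjamini-Hochberg adjustment). Without replicates 4 and 5 the blocked log2 fold changes were 0.24 and 0.15, and neither passed (adjusted p = 0.156 and 0.157, edgeR with Benjamini-Hochberg adjustment). Over the other 46 genes the log2 fold change with the block ran from -0.21 to 0.12, and in 47 of the 48 genes the interval lay within 0.5 on either side of 0.

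**Figure D5:**
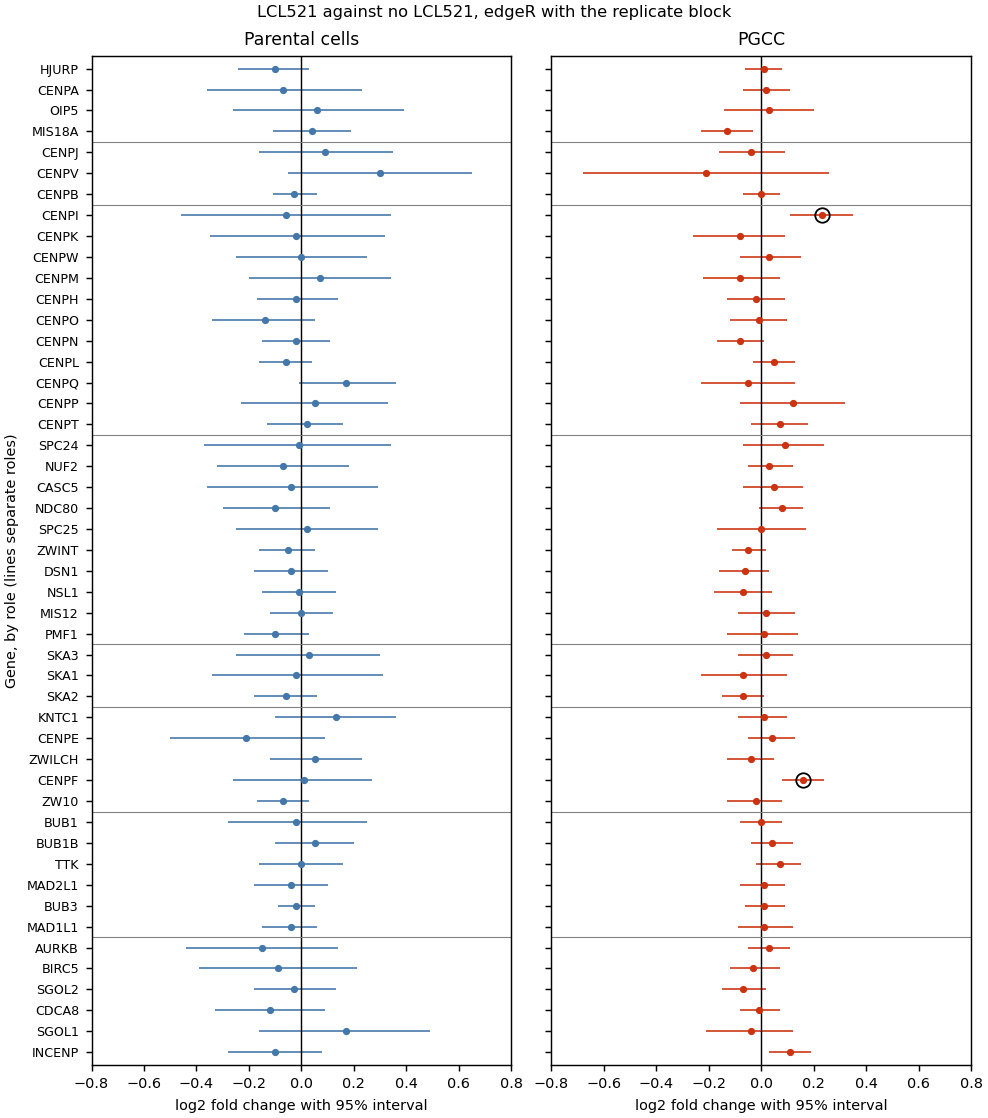
Log2 fold changes (horizontal axes, points) with 95% intervals for LCL521 against no LCL521 in parental cells (left) and in PGCC (right), from edgeR with the replicate block, for the 48 genes (vertical axis, grouped by role). Black rings mark CENPI at 0.23 and CENPF at 0.16 in PGCC, the genes that passed the threshold with the block.

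Whether the drug effect differed between PGCC and parental cells was tested as an interaction over all 24 libraries. None of the 48 genes passed, with or without the block, where 0% of 14555 genes did. By edgeR none had an unadjusted p under 0.05 without the block, against 0.412% of all genes tested. The block assumed the same replicate effect in both populations. For CENPF the blocked SE of the difference was 0.25, against 0.13 for the drug effect in parental cells and 0.04 in PGCC. A small difference between the populations could therefore be missed. The smallest p without the block was that of CENPV, at 0.209, with a difference of -0.53 (SE 0.41) on the log2 scale. CENPI had a difference of 0.32 (SE 0.28), from effects of -0.09 in parental cells and 0.23 in PGCC without the block, and INCENP one of 0.20 (SE 0.19).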

How the data were processed

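RNA-seq of PPC1 cells covered 4 conditions of 6 libraries. The authors deposited raw read counts per gene; their supplementary methods name STAR 2.5 and HTSeq 0.6.1, and the processing notes name hg19. Strand counting and the annotation release are not given in the sources used here, so genes that overlap others are uncertain. Coordinates are the file's, with hg19; RefSeq promoters carry GRCh38.p14.

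Counts of all 48162 genes were analysed in R 4.3.3 with edgeR 4.0.16 (filterByExpr, minimum count 10 and minimum total 15, TMM, glmQLFit and glmQLFTest without a block on the 12 libraries compared, or on all 24 for the interaction), with Benjamini-Hochberg adjustment over all genes tested and a threshold of 0.05. Standard errors are the log2 fold change divided by the square root of F, and intervals are at the 95% level. Log2 CPM carried a prior count of 2. The procedure was tested on simulated data.

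Replicate numbers stand for 6 experiments with parallel harvests (series design). Deviations of same-numbered libraries correlated in every pair, at 0.171 or above. The block was therefore run beside each test, and P-values without it measure the spread between libraries. The alternatives were the block, DESeq2 1.42.0, RLE factors, library totals, no filter, all 24 libraries in 1 fit, and leaving out each replicate or replicates 4 and 5.

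The genes, their roles and the companion lists were chosen with earlier results of these data known. Values were named for the 5 largest rises and falls among called genes (mean log2 CPM of 2 or more), of which only 2 fell, for genes called under LCL521 or with the 3 smallest p-values there, for CENPA and its loading factors, and for the NDC80, passenger and checkpoint groups. Other members are given by role. Every per-sample column was used. Some marker values are not reported here. The depth, given as total counts per library, sets the precision.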

Additional observations from a re-analysis of the deposited data

Results flagged for a closer look

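In each condition the 6 libraries of every gene were checked for a library far from the others, 192 sets of values in all, of which 8 were flagged; chance flags about 1 in 20. CENPA stood out in replicate 2 of PGCC, at 60.7 CPM with the next library at 46.4 CPM, and again in replicate 2 of PGCC with LCL521, at 60.6 CPM with the next at 47.0 CPM. In PGCC with LCL521, CASC5 was low in replicate 6, at 28.2 CPM against 33.9 CPM for the next library. The other 5 were in parental cells with LCL521. OIP5 was low in replicate 1, at 1.70 CPM against 2.56 CPM for the next, and CENPB was high there, at 470 CPM against 380 CPM. CENPN was low in replicate 4, at 15.2 CPM against 22.8 CPM. SPC25 and BIRC5 were high in replicate 5, at 6.49 CPM against 3.31 CPM and at 15.7 CPM against 8.83 CPM. No gene had a drug effect that differed between the populations by the interaction test, and none moved one way in all 6 pairs of one population and the other way in all 6 of the other.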

How the results depend on the processing

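With the replicate block 4 genes, not 2, were lower in PGCC, since MIS12 and ZW10 joined CENPB and PMF1, and leaving out replicates 4 and 5 with the block also gave 4, without LCL521 as well as with it. Calls rose over the whole table too. Without LCL521 the share of all genes called was 47.4% in the main fit, 56.2% with the block and 64.3% with the block but without replicates 4 and 5. With LCL521 these shares were 48.9%, 56.3% and 57.5%. The block with LCL521 in both populations added MIS12 alone, for 3 lower genes. For LCL521 in PGCC the replicate block gave 2 calls (CENPI and CENPF) instead of 0. It changed no other call among the 48 genes. All 43 calls of PGCC against parental cells were kept under each alternative except that BUB3 lost its call when no filter was used (log2 fold change 0.21, adjusted p = 0.0649 by edgeR with Benjamini-Hochberg adjustment), and with LCL521 all 43 were kept. ZW10 was also called lower with DESeq2, with all 24 libraries in 1 fit, without replicates 4 and 5 and without replicate 4 or 5 alone, and CENPV with LCL521 without replicate 1. No value was reversed. Scaling by library totals moved the share of all calls that were higher in PGCC from 48.7% to 60.2% and the median of all genes tested from -0.03 to 0.07, and left 41 of the 48 genes higher and 2 lower. Genes near 2 CPM, such as CENPV, have wide intervals at this depth.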
